A study of Mus musculus with 12 samples.

Results

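Transcripts of the kinesins, cytoplasmic dynein and dynactin, the motors that carry mitochondria, vesicles and other cargo along axons, were described in the lumbar spinal cord of mice. Members were the protein-coding genes whose symbol is Kif with a digit, or starts with Klc, Dync or Dctn, matched by Ensembl identifier. Kif5a, Kif5b, Kif5c and Kif1b were not members by this rule. It gave 52 members among 49548 genes counted in each library, with 34 Kif motors, 4 kinesin light chains, 7 dynein subunits, 6 dynactin subunits and Kif1bp. Kif1bp encodes a protein that binds kinesins and is not itself a motor. Of the 52, 48 passed the filter on low counts and were tested, and Kif12, Kif28, Kif2b and Kif2c did not pass.

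RNA came from 8 MFN2 mice and 4 WT mice, all untreated and 30 days old, with 1 library per mouse. MFN2 mice are MitoCharc1 animals of the transgenic line L51Ugfm on a B6;D2 background, labelled CMT2A, which are hemizygous for human R94Q MFN2 under the neuron-specific rat Eno2 promoter and keep both copies of mouse Mfn2. WT mice are labelled C57BL/6. The study's methods call them littermates. The promoter directs the transgene mainly to neurons, whereas whole cord holds glia, vessels and meninges too, and in such bulk RNA fewer cells of a type and less RNA per cell cannot be told apart. Total counts were between 19359454 and 26738930 in MFN2 libraries and between 19453238 and 23564568 in WT libraries, of which the members took between 0.764% and 0.936%. Libraries are named by the numbers in their labels. Numbers 41 to 43 are MFN2 and 44 to 47 are WT, while 72 to 76 are MFN2 only, so that in this second run of numbers the run and the genotype cannot be told apart.

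Most kinesins move cargo towards the plus ends of microtubules, which in axons point away from the cell body. Cytoplasmic dynein 1, with its cofactor dynactin, carries cargo back, including worn mitochondria and signals from the nerve terminal. Other kinesins build the mitotic spindle and separate chromosomes, move material within cilia together with dynein 2, or shorten microtubules. Mutations in several of these genes cause motor neuron disease, spastic paraplegia or neuropathy, and axonal transport of mitochondria is one of the processes that MFN2, a mitochondrial fusion protein, is known to affect.

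Libraries 43 and 44 stood apart from the rest. In library 43 (MFN2) 14 forebrain marker genes summed to 5149.7 CPM (counts relative to the TMM-scaled library size), against 159.6 to 266 CPM in the other 11 libraries. All 14 were highest there, and Camk2a, the most abundant, was at 1913 CPM. In the same library the 8 motor neuron markers (60.3 CPM), the 8 oligodendrocyte markers (5672 CPM) and 14 Hox genes (listed from Hoxa5 to Hoxc11, 51.7 CPM) had their lowest sums. The ranges elsewhere were 262 to 533, 13388 to 23773 and 292 to 372 CPM. Single Hox genes differed more than their sum. Hoxd11 was at 14.8, 0, 0.62 and 0.99 CPM in WT libraries 44 to 47. In MFN2 libraries it was at 0, 16.4 and 2.01 CPM (41 to 43) and at 15.7, 5.80, 12.9, 12.7 and 2.03 CPM (72 to 76). Hoxd10 and Hoxc11 were also highest in libraries 42, 44, 72, 74 and 75. The part of this split in the member values was not tested. Of the forebrain genes, Emx1, Emx2 and Lhx2 were each at 0 in at least 1 library and above 0 in library 43. In library 44 (WT) the 8 dividing cell markers summed to 119 CPM, the highest of the 12 libraries.

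The promoters of the mitotic kinesins are shown first, because these genes varied widely between libraries. The motifs searched were the CHR (TTTGAA, read on either strand), through which cell cycle genes are held silent in resting cells, and the CCAAT box (CCAAT on either strand), which NF-Y binds. In the RefSeq promoters of GRCm38.p6, from 250 bases before to 50 bases after each start, which list 41 of the 52 members, TTTGAA was found in 9 of 10 mitotic kinesins (Kif18a had none) and in 4 of 31 other members (Dctn1, Kif1a, Kif26b and Kif27), against 20.2% of the promoters of 27025 genes. Within 30 bases of the start it was found in 7 of the 10 and in 1 of the 31 (Kif26b), against 3.39% of all genes. CCAAT was found in 6 of 10, in 13 of 31 and in 41.1% of all genes. Those 7 promoters are printed from 60 bases before to 25 bases after the start, on the strand of the gene, with both motifs in capitals. Kif1c and Dync1i1, a motor and a dynein subunit outside the mitotic class, are shown for contrast, and the windows were chosen after the matches were seen.
Kif11: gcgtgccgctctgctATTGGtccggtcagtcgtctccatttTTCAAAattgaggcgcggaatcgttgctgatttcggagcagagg
Kif15: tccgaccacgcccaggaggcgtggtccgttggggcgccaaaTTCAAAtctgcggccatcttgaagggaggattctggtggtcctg
Kif18b: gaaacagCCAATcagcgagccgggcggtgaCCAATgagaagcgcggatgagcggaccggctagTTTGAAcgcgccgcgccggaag
Kif20b: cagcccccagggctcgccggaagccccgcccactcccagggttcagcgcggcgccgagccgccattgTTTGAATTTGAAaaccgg
Kif22: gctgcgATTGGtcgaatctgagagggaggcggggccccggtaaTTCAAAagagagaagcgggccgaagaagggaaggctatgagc
Kif23: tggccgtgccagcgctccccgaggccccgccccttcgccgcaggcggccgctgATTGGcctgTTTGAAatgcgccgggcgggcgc
Kif4: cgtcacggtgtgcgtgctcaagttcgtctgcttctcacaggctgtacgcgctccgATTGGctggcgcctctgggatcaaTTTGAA
Kif1c: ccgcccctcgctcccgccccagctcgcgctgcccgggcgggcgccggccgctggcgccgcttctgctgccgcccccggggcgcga
Dync1i1: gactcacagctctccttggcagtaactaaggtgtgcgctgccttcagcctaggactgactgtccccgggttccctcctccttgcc
On GRCm38.p6 these windows lie on the plus strand for Kif11 at chr19:37376322-37376406, Kif15 at chr9:122951021-122951105, Kif20b at chr19:34922298-34922382, Kif4 at chrX:100626005-100626089, Kif1c at chr11:70700488-70700572 and Dync1i1 at chr6:5725579-5725663. They lie on the minus strand for Kif18b at chr11:102925100-102925184, Kif22 at chr7:127042396-127042480 and Kif23 at chr9:61946775-61946859. In Kif11, Kif15 and Kif22 the CHR reads TTCAAA, the other strand of TTTGAA, and lies before the start. In Kif18b, Kif20b, Kif23 and Kif4 it reads TTTGAA and lies after it, with 2 copies end to end in Kif20b. The windows of Kif1c and Dync1i1 hold neither motif. A match is a description of the letters and not a binding site.

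In WT cord the members differed widely in level, down to genes at the limit of detection. Divided by the length of the annotated exons (RPKM), 24 members were above 10, 11 were from 1 to 10 and 17 were under 1. Klc1, a light chain that links kinesin-1 to its cargo, was highest at 203 ± 19.2 RPKM (SD, n = 4). It was followed by Kif1a, the motor of synaptic vesicle precursors and dense core vesicles, at 175 ± 11.6 RPKM, and by Dync1h1, the motor subunit of dynein 1, at 135 ± 10.8 RPKM. The ranges of Klc1 and Kif1a overlapped between the 4 WT mice, whereas Dync1h1 lay below Kif1a and above the next gene without overlap.

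The next in order per length were Kif21a (93.0 ± 6.64 RPKM), a motor that limits microtubule growth, and Dctn1 (92.2 ± 7.82 RPKM), which encodes p150Glued, the dynactin arm that binds dynein and microtubules. The light chain Klc2 was at 82.0 ± 7.98 RPKM and Dync1li2, a light intermediate chain of dynein 1, at 75.3 ± 5.59 RPKM. Ranges of neighbours overlapped from Kif21a to Dync1li2, while Kif21a and Dctn1 each lay above Dync1li2 without overlap. Kif3a, the motor of heterotrimeric kinesin-2, was at 52.0 ± 1.98 RPKM, its partner Kif3c at 41.7 ± 2.15 RPKM (with 40.7% of its exon bases shared with genes on the other strand, so that its counts are uncertain) and Dync1i1, the neuronal intermediate chain of dynein 1, at 36.3 ± 2.73 RPKM. Of the 51 pairs of neighbours in the whole order, 41 overlapped in the WT mice.

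**Figure D1:**
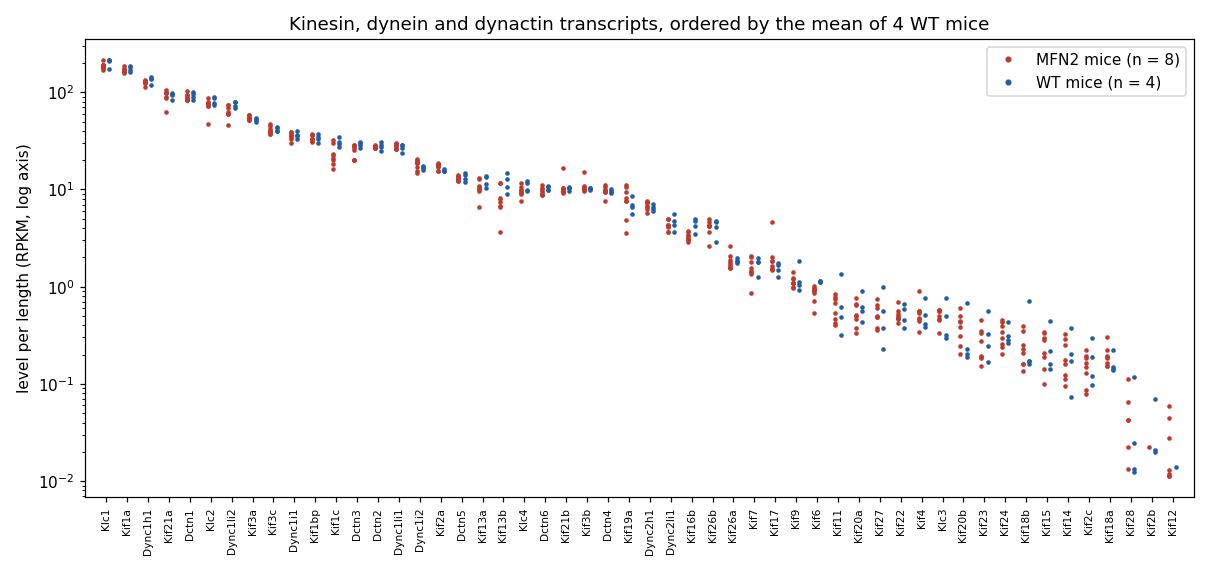
Level per length (RPKM, log axis) of the 52 members, ordered by the WT mean, with 1 point per library and values of 0 not drawn. Red points are the 8 MFN2 mice and blue points the 4 WT mice, and the genotypes overlap for all tested members but Kif6.

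The 11 mitotic kinesins were each under 1 RPKM in WT cord. With library 44 included the highest was Kif11, the spindle motor Eg5, at 0.694 ± 0.461 RPKM. Kif20a followed at 0.626 ± 0.195 RPKM, and their ranges overlapped. Without library 44 the WT mean of Kif11 went from 5.18 to 3.52 CPM and that of Kif20a from 2.71 to 2.33 CPM. Per length Kif20a was then above Kif11, so the rank of Kif11 rests on this library. The members at the bottom rest on few reads, with 36 counts over all 12 libraries for Kif28, 14 for Kif12 and 6 for Kif2b. Between WT mice the median coefficient of variation was 8.65% for the 38 tested members that are not mitotic kinesins, 55.0% for the 10 tested mitotic kinesins and 10.05% for all genes tested. Without library 44 these values were 6.07%, 20.6% and 8.32%.

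The members of a complex differed in level. In dynactin, Dctn1 was followed by Dctn3 (p24) at 29.1 ± 1.92 RPKM and Dctn2 (dynamitin) at 27.9 ± 2.36 RPKM, whose ranges overlapped. Within dynein 1 the ubiquitous intermediate chain Dync1i2 was at 16.7 ± 0.72 RPKM, below the neuronal Dync1i1. This order rests on the annotated exon lengths, as in CPM Dync1i2 was at 138 ± 5.96 and Dync1i1 at 130 ± 9.77. Dync2h1, the dynein 2 motor that returns cargo from the tips of cilia, was at 6.50 ± 0.43 RPKM, per length below each dynein 1 subunit.

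Between all 8 MFN2 and 4 WT mice, 0 of the 48 members passed the quasi-likelihood test of edgeR at an FDR of 0.05, as did 0 (0%) of all 15942 genes tested. Of the members, 5 had an unadjusted p under 0.05, all lower in MFN2 mice. This is 10.4% of the members, against 15% of all genes (2386 genes) in either direction and 7.57% that were lower. They were Kif13b, Kif1c, Kif16b, Kif6 and Dync1li2. DESeq2 called 200 genes and, among the members, Kif16b. The median log2 fold change was -0.03 over the members and 0.0038 over all genes, with 18 members above 0 and 30 below.

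Kif16b, which moves early endosomes, had the lowest FDR of the members in this comparison. It was at 31.5, 38.3, 42.6 and 44.6 CPM in WT libraries 44 to 47, while in the 8 MFN2 mice the lowest value was 26.2, the median 29.3 and the highest 33.7 CPM. Of the WT mice only library 44 fell within the MFN2 range. The MFN2 mean of 29.8 ± 2.77 CPM (SD, n = 8) and the WT mean of 39.2 ± 5.78 CPM (SD, n = 4) gave a log2 fold change of -0.40 (SE 0.097, adjusted p = 0.254, edgeR). With DESeq2 the adjusted p was 0.0401, and without libraries 43 and 44, a choice made after seeing the data, it was 0.0328 in edgeR.

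Kif6, a kinesin-9 of motile cilia, was the 1 member whose levels did not overlap between genotypes, against 330 genes (2.07%) of all those tested. It was at 6.79, 6.82, 6.76 and 6.82 CPM in WT libraries 44 to 47. In MFN2 mice it ranged from 3.23 CPM in library 43 over a median of 5.55 to 6.10 CPM. Its log2 fold change was -0.39 (SE 0.15, adjusted p = 0.285, edgeR). The 10 ependymal markers, whose cells bear the motile cilia of the central canal, summed to between 39.1 and 75.3 CPM in WT mice (58.8 CPM at most without library 44) and between 35.3 and 49.5 CPM in MFN2 mice. Foxj1, their most abundant gene, was at 16.7 to 24.6 CPM in WT mice and at 6.12 (library 43) to 18.03 CPM in MFN2 mice, and the part of these cells in the Kif6 values was not tested.

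None of the other largest differences passed the threshold. Among the 5 largest falls were Kif13b (-0.55, SE 0.24), Kif1c (-0.41, SE 0.16) and Kif18b (-0.38, SE 0.44), beside Kif16b and Kif6. Without library 44 Kif18b was at 0.47, so its direction rests on this WT library. The 5 largest rises were Kif17 (0.43, SE 0.29), Kif20b (0.25, SE 0.38), Kif18a (0.25, SE 0.22), Kif19a (0.20, SE 0.26) and Kif2a (0.13, SE 0.062). Without library 44 Kif20b was at 0.91 and Kif18a at 0.44, and without library 43 Kif17 was at 0.14 and Kif19a at 0.30. The adjusted p of these rises ranged from 0.342 for Kif2a to 0.753 for Kif20b in edgeR's quasi-likelihood test. With the run of numbers as a covariate Kif19a turned to -0.22 and Kif20b to -0.055. In that fit Kif17 was at 0.75, Kif18a at 0.10 and Kif2a at 0.067. Kif17, which carries NMDA receptor vesicles in dendrites, was at 21.3 CPM in library 43 and between 6.82 and 9.27 CPM in the other MFN2 mice.

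Of the 10 members on a chosen list of genes linked to inherited disease, 0 passed the test. Of their log2 fold changes, 2 were above 0 and 8 below. Dync1h1, mutated in spinal muscular atrophy of the legs and in axonal neuropathy, averaged 1984 ± 100.1 CPM in MFN2 mice (SD, n = 8) and 2110 ± 169 CPM in WT mice (SD, n = 4). Its log2 fold change was -0.09 (SE 0.066, adjusted p = 0.513, edgeR). Dctn1, mutated in distal motor neuropathy and Perry syndrome, was at 584 ± 47.3 and 600.1 ± 50.9 CPM (-0.04, SE 0.076). Kif1a, mutated in spastic paraplegia and sensory neuropathy, was at 1572 ± 87.6 and 1631 ± 108 CPM (-0.05, SE 0.064). Each of these differences in means was smaller than the SD between the 4 WT mice, but without library 44 the log2 fold changes were -0.14 for Dync1h1, -0.09 for Dctn1 and -0.09 for Kif1a. The WT means without it were 2191 ± 53.6, 621 ± 37.4 and 1676 ± 75.2 CPM (SD, n = 3), and those of Dync1h1 and Kif1a then lay further from the MFN2 mean than this SD.

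Differences of the other genes on this disease list were not past the threshold either. The log2 fold change was -0.01 (SE 0.12) for Kif21a, mutated in fibrosis of the eye muscles, and -0.16 (SE 0.13) for Klc2, mutated in a spastic paraplegia with optic atrophy. Without library 43 these were 0.06 and -0.08. For the cilium genes it was -0.11 (SE 0.20) for Kif7, a regulator of Hedgehog signalling, and 0.08 (SE 0.082) for Dync2h1. Kif7 was at -0.03 without library 43 and at -0.24 without library 44. Dync2h1 was at 0.049 to 0.125 with 1 library left out, and at -0.051 with the run of numbers as a covariate. For Kif11 it was -0.19 (SE 0.34) and, without library 44, 0.37, so its direction rests on this WT library.

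The MFN2 libraries were then compared with WT by run of numbers. With libraries 41 to 43, which share the run of the WT libraries, 0 of 48 members and 1 of all genes tested (0.00627%) passed the test. At an unadjusted p under 0.05 there were 2 members, Kif16b (-0.32, SE 0.13) and Kif6 (-0.49, SE 0.20), against 7.2% of all genes in either direction and 1.85% that were lower, and DESeq2 gave 0 members and 0.0251% of all genes. Without library 43 Kif6 was at -0.28. With libraries 72 to 76, 8 of 48 members passed (16.7%), 2 higher and 6 lower, against 23.5% of all genes (3753 genes). By direction, 12.5% of the members were lower against 12.2% of all genes, and 4.17% were higher against 11.4%. In 1 fit of 3 groups over all 12 libraries, where libraries 41 to 43 also enter the estimate of the spread, 2 members passed, Kif16b (adjusted p = 0.0316, edgeR) and Dync1i2 (adjusted p = 0.0445, edgeR), against 7.68% of all genes (1224 genes). The other 6 calls described here were lost in that fit, with adjusted p between 0.0733 for Kif1c and 0.377 for Kif13a in edgeR. With each of the 9 libraries left out in turn, Kif1c, Kif13b, Kif16b, Dync1li2 and Dync1i2 passed in all 9 fits. Dctn3 was lost without library 45, 46, 47, 72, 73 or 74, Kif13a without 45, 47, 72, 74 or 75, and Kif2a without 45 or 46.

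**Figure D2:**
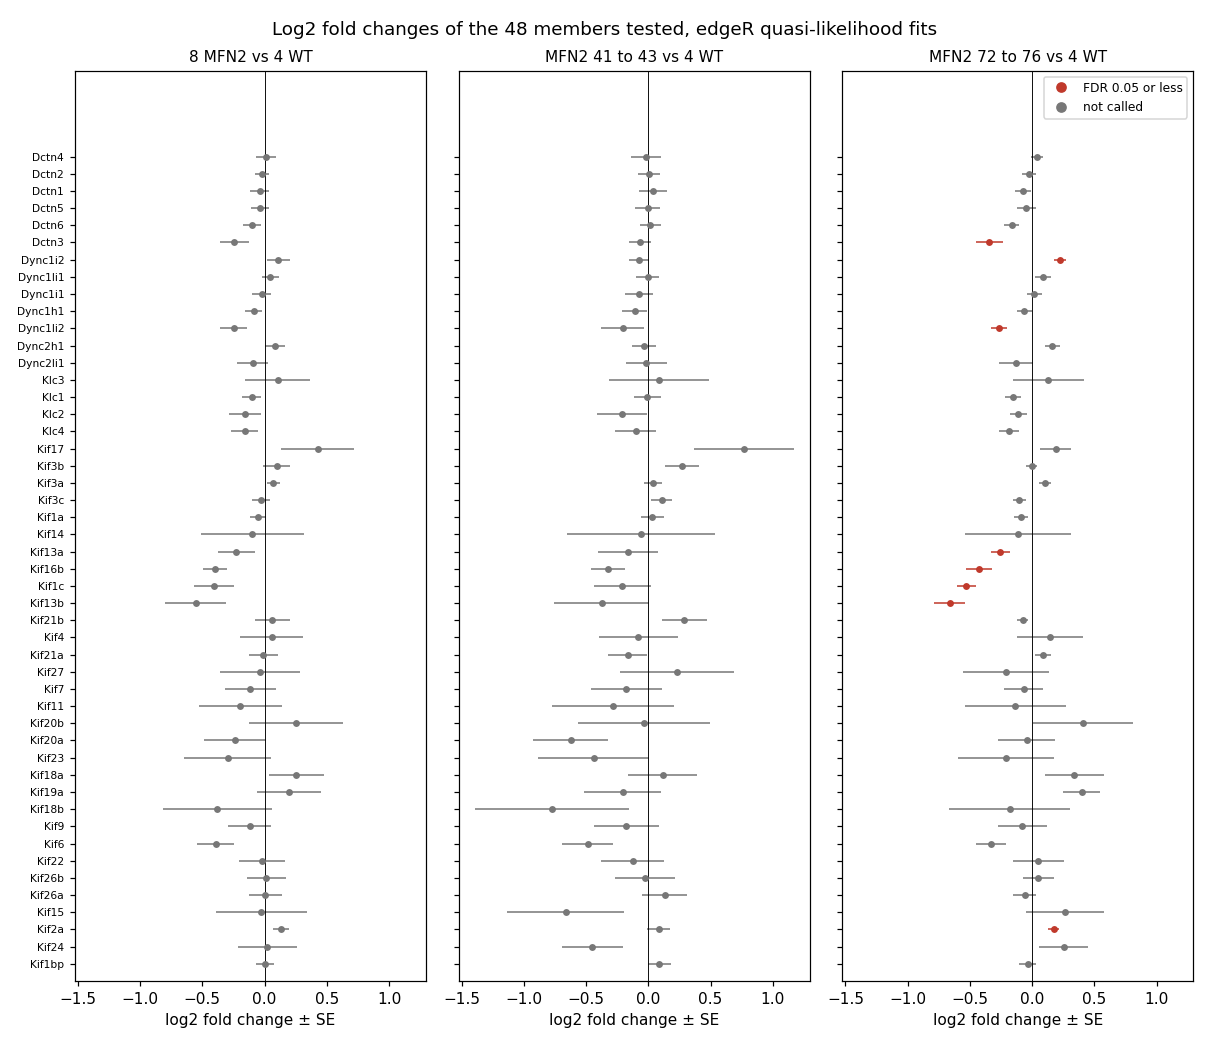
Log2 fold change (horizontal axis, bars are the SE) of the 48 members tested in 3 fits, for all MFN2 libraries, libraries 41 to 43 and libraries 72 to 76, each against the same 4 WT libraries. Red points have an FDR of 0.05 or less, and are 8 members in the right panel and 0 in the others.

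Of the 8, 4 are kinesin-3 motors, which carry vesicles and endosomes as single long-range motors. All 4 were lower in libraries 72 to 76. Kif1c, a fast vesicle motor of many cell types that is mutated in spastic ataxia, had the lowest FDR. It was at 198, 250.3, 213 and 226 CPM in WT libraries 44 to 47 and at 145, 169, 134, 152 and 166 CPM in libraries 72 to 76. These groups did not overlap, as was the case for 19.6% of all genes and 5 of the members. The log2 fold change was -0.53 (SE 0.078, adjusted p = 0.000961, edgeR).

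Kif13b, which carries PIP3-containing vesicles and in Schwann cells and oligodendrocytes takes part in myelination, fell most. It was at 118, 165, 140 and 190 CPM in WT libraries 44 to 47 and at 97.7, 106, 88.7, 86.7 and 103 CPM in libraries 72 to 76, again without overlap. The log2 fold change was -0.66 (SE 0.12, adjusted p = 0.00465, edgeR). In libraries 41 and 42 Kif13b was at 150.2 and 153 CPM, within the WT range. In library 43 it was at 48.01 CPM, the lowest of the 12.

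Kif16b was at 33.4, 27.2, 28.6, 26.2 and 30.0 CPM in libraries 72 to 76 (log2 fold change -0.43, SE 0.10, adjusted p = 0.0111, edgeR). Kif13a, which carries vesicles with mannose 6-phosphate receptors, was at 84.0, 109.8, 92.8 and 111 CPM in WT libraries 44 to 47. In libraries 72 to 76 it was at 81.5, 87.4, 77.3, 81.8 and 86.7 CPM (-0.25, SE 0.078, adjusted p = 0.0322, edgeR). In both genes the groups overlapped through library 44, the lowest WT library. The remaining kinesin-3 members tested, Kif1a (-0.09, SE 0.054) and the mitotic Kif14 (-0.11, SE 0.42, and 0.35 without library 44), were not called. Kif1b, a kinesin-3 motor that is not a member, was not called either (-0.15). Thus 4 of the 6 members tested passed, all lower, and the median of these 6 was -0.34. Of all genes 23.5% passed in either direction and 12.2% were lower. The family was taken up because 4 of the called members belong to it, so its share has no chance value to be set against. In the fit of 3 groups Kif16b alone of these 4 passed. In libraries 41 to 43 against the same WT mice the median of the 6 was -0.19 and 0 passed, and without library 43 the median was 0.02.

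Oligodendrocyte markers summed to 16399 to 23773 CPM in libraries 72 to 76 and to 15386 to 19562 CPM in WT libraries. The groups overlapped for these markers, and for the 8 neuronal markers at 12192 to 13938 against 9325 to 13629 CPM. The forebrain markers did not overlap, with sums of 221 to 253 CPM in libraries 72 to 76 and 159.6 to 212 CPM in WT libraries. Of single markers, Foxj1 (-1.07) and Tekt1 (-1.01) among 8 ependymal genes and Hoxa5 (-0.46) among 14 Hox genes were called lower. The share of all genes called lower was 12.2%. Of the 14 Hox genes 7 were above 0 and 7 below. Hoxd10 (1.39), Hoxd11 (1.25) and Hoxc11 (1.25) rose most and were not called. Syt1 (0.48) and Nefm (0.36) among 8 neuronal genes and Arpp21 (0.66) and Nrgn (0.58) among 10 forebrain genes were called higher, against 11.4% of all genes. Of the 8 neuronal genes 5 were above 0 and 3 below, among them Uchl1 (-0.30) and Snap25 (-0.18). Of the 10 forebrain genes 9 were above 0 and 1, Slc17a7 (-1.12), below. Neither the 8 oligodendrocyte genes nor the 8 motor neuron genes held a call. Their part in the member values was not tested.

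Of the 5 dynein 1 subunits among the members, 1 was called lower and 1 higher in libraries 72 to 76. The shares of all genes were 12.2% and 11.4%. In the fit of 3 groups Dync1i2 passed but Dync1li2 did not (adjusted p = 0.200, edgeR). Dync1li2 was at 413, 481, 439.8 and 482 CPM in WT libraries 44 to 47 and at 371, 358, 356, 381 and 418 CPM in libraries 72 to 76 (log2 fold change -0.27, SE 0.062, adjusted p = 0.00974, edgeR). Only library 76 reached the lowest WT value. Dync1i2 was at 131, 144, 137 and 142 CPM in WT libraries and at 154, 154, 162, 164 and 171 CPM in libraries 72 to 76, without overlap (0.22, SE 0.049, adjusted p = 0.00753, edgeR). The other 3 subunits, Dync1h1, Dync1i1 and Dync1li1, were not called, at -0.06, 0.02 and 0.09, or -0.12, -0.03 and 0.02 without library 44.

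Of the 6 dynactin subunits 1 was called, against 23.5% of all genes. Dctn3 was at 27.7, 31.4, 30.2 and 32.3 CPM in WT libraries 44 to 47. In the second run it was at 21.04, 20.8 and 20.7 CPM in libraries 72 to 74 but at 27.65 and 29.0 CPM in libraries 75 and 76. Library 76 lay within the WT range and library 75 at its lower edge. The log2 fold change of -0.34 (SE 0.11, adjusted p = 0.0379, edgeR) thus rests on 3 of the 5 libraries.

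Kif2a, a kinesin-13 that shortens microtubules and limits axon branches, was higher by a small amount. It was at 99.6, 99.98, 98.7 and 104 CPM in WT libraries 44 to 47 and at 119, 111, 114, 110.02 and 112 CPM in libraries 72 to 76, without overlap (0.17, SE 0.045, adjusted p = 0.0158, edgeR). In libraries 41 to 43 it was at 99.5, 98.6 and 118 CPM, so that library 43 lay among libraries 72 to 76. About 19.2% of its exon bases are shared with genes on the other strand, and since the strand setting of the counting is not known its counts may hold reads of these genes.

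**Figure D3:**
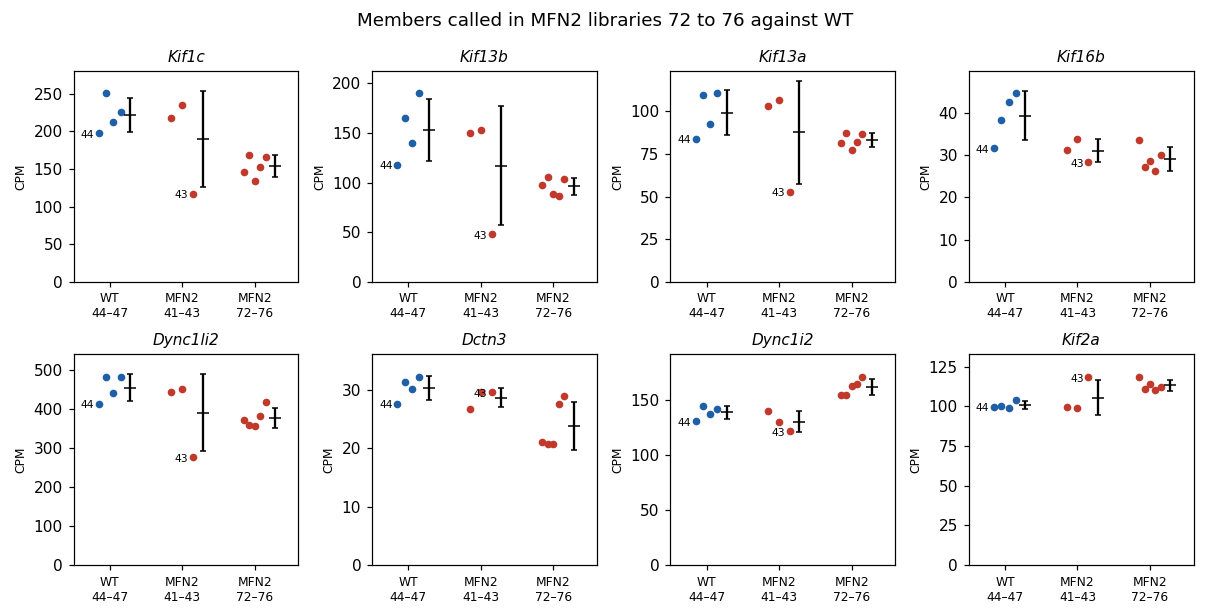
Level (CPM, axis from 0) of the 8 members called in libraries 72 to 76 against WT, with 1 point per library, WT in blue and MFN2 in red, and libraries 43 and 44 numbered. Horizontal marks with bars are mean ± SD; libraries 41 and 42 lie within or close to the WT range, and library 43 is the lowest MFN2 library for Kif1c, Kif13b, Kif13a, Dync1li2 and Dync1i2.

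Whether the runs differ was tested within MFN2 mice, where libraries 72 to 76 were compared with libraries 41 to 43. Of the 48 members 0 passed, against 2.29% of all genes (365 genes), with 8 members at an unadjusted p under 0.05, against 24.5% of all genes, and 4 called by DESeq2 (Dync1i2, Kif15, Kif24 and Kif3c), against 11.1% of all genes. Without library 43, 6 members passed, against 14.6% of all genes (2325 genes). Kif13b (-0.65), Kif1c (-0.56), Kif13a (-0.34) and Dync1li2 (-0.25) were then lower in libraries 72 to 76, and Kif15 (1.24) and Dync1i2 (0.26) were higher. This comparison and the one against WT share libraries 72 to 76. In libraries 41 and 42 Kif1c was at 217 and 235 CPM and Kif13a at 103 and 107 CPM, within the WT range for both. In libraries 41 and 42 alone against WT, 0 members passed in edgeR, against 0.00627% of all genes, with 1 at an unadjusted p under 0.05, against 5.67%.

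Library 44 also bears on the comparison of libraries 72 to 76 with WT. Without it, 14 of 48 members passed (29.2%), 5 higher and 9 lower, against 28.3% of all genes (4517 genes). The 8 members named above were among them. The others were Klc1 (-0.22), Klc4 (-0.25) and Dctn6 (-0.19), which were lower, and Dync2h1 (0.20) and the mitotic Kif15 (0.73) and Kif20b (1.07), which were higher.

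The mitotic kinesins varied widely between libraries of each genotype. Their sum was 45.4 CPM in library 44 (WT), 34.5 CPM in library 73 (MFN2), 33.7 CPM in library 72 (MFN2) and between 16.7 and 26.3 CPM in the other 9 libraries. By genotype it averaged 25.2 ± 6.20 CPM in MFN2 mice (SD, n = 8) and 26.3 ± 13.0 CPM in WT mice (SD, n = 4), or 19.98 ± 3.34 CPM without library 44 (SD, n = 3). Single genes did not all follow the order of the sum, as Kif14 was at 3.41 CPM in library 43 and at 2.59 and 3.001 CPM in libraries 72 and 73. Of the 10 tested, 0 passed in edgeR in any of the 4 comparisons, against 0% of all genes for all MFN2 mice, 0.00627% for libraries 41 to 43 and 23.5% for libraries 72 to 76, each against WT, and 2.29% between the MFN2 runs. At an unadjusted p under 0.05 there were 0 in the 3 comparisons with WT. The share of all genes was 15.0% for all MFN2 mice and 7.2% for libraries 41 to 43. For libraries 72 to 76 it was at least the 23.5% that passed the FDR. Between the MFN2 runs there were 2 (Kif15 and Kif20a), against 24.5% of all genes. DESeq2 called 0 in all MFN2 mice against WT (1.25% of all genes) and Kif15 between the MFN2 runs (11.1% of all genes).

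In library 44, 9 of the 10 mitotic kinesins tested lay more than 0.5 above the mean of the other 3 WT libraries in log2 CPM, as did 8.23% of all genes and 3 of the 38 other members. Kif18b, which shortens spindle microtubules, was at 2.53 CPM there and at 0.611, 0.619 and 0.573 CPM in libraries 45 to 47. Kif20b, needed for cytokinesis, was at 4.75 CPM against 1.32, 1.59 and 1.41 CPM, and Kif11 at 10.1 CPM against 2.35, 3.63 and 4.58 CPM. In these 3 genes library 44 lay above all other WT libraries, and libraries 72 and 73 had the highest MFN2 values (5.83 and 6.20 CPM for Kif11, 3.46 and 4.20 CPM for Kif20b, 1.40 and 1.25 CPM for Kif18b). They are among the genes with a CHR printed above.

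The same 3 libraries were highest for the 8 dividing cell markers, with sums of 119, 96.0 and 93.6 CPM in libraries 44, 73 and 72 and between 22.2 and 57.04 CPM elsewhere. Mki67, the most abundant, was at 78.6, 67.0 and 66.5 CPM in these libraries. The 5 red cell precursor genes Slc4a1, Epb42, Hemgn, Kel and Rhag, chosen after their values were seen, summed to 59.7, 47.2 and 39.4 CPM there and to between 2.87 and 22.4 CPM elsewhere. Slc4a1, the anion exchanger of red cells and the most abundant of them, was at 43.8, 34.8 and 27.2 CPM. The 4 neutrophil precursor genes Mpo, Ngp, Camp and Ltf, chosen in the same way, summed to 50.2 CPM in library 44 and to at most 19.8 CPM elsewhere. The part of such cells in the mitotic kinesin values was not tested.

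**Figure D4:**
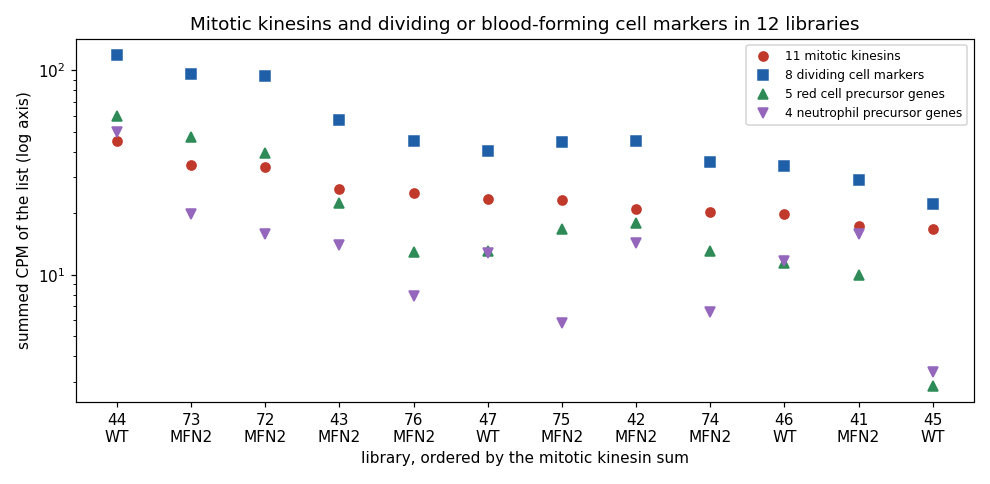
Summed level (CPM, log axis) of the 11 mitotic kinesins, 8 dividing cell markers, 5 red cell precursor genes and 4 neutrophil precursor genes in each of the 12 libraries, ordered by the mitotic kinesin sum. Libraries 44 (WT), 73 and 72 (MFN2) lead the first 3 lists, with mitotic kinesin sums of 45.4, 34.5 and 33.7 CPM.

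In library 43, 12 of the 48 members tested lay more than 0.5 below the mean of the other 7 MFN2 libraries in log2 CPM and 6 lay more than 0.5 above it, against 18.3% and 17.8% of all genes. This library held the lowest of the 12 values for 18 members (37.5%), against 28.8% of all genes, and the highest for 5 (10.4%), against 25.9%. The 5 farthest below were Kif19a (-1.20), which controls cilium length, Kif13b (-1.19), Kif7 (-0.91), Kif13a (-0.74) and Kif6 (-0.73). Of these, Kif13b was at 48.01 CPM against 86.7 to 153 CPM in the other MFN2 mice, and Kif19a at 14.5 against 19.6 to 45.7 CPM.

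The 5 farthest above were Kif17 (1.45), the mitotic Kif14 (1.00), Kif21b (0.76), Kif27 (0.61) and Kif26a (0.60). Kif21b, which regulates microtubule dynamics in dendrites, was at 203 CPM in library 43 and between 113 and 125 CPM in the other MFN2 mice. The fall of the oligodendrocyte, motor neuron and Hox lists and the rise of the forebrain list in this library are given above, and their part in the member values was not tested.

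**Figure D5:**
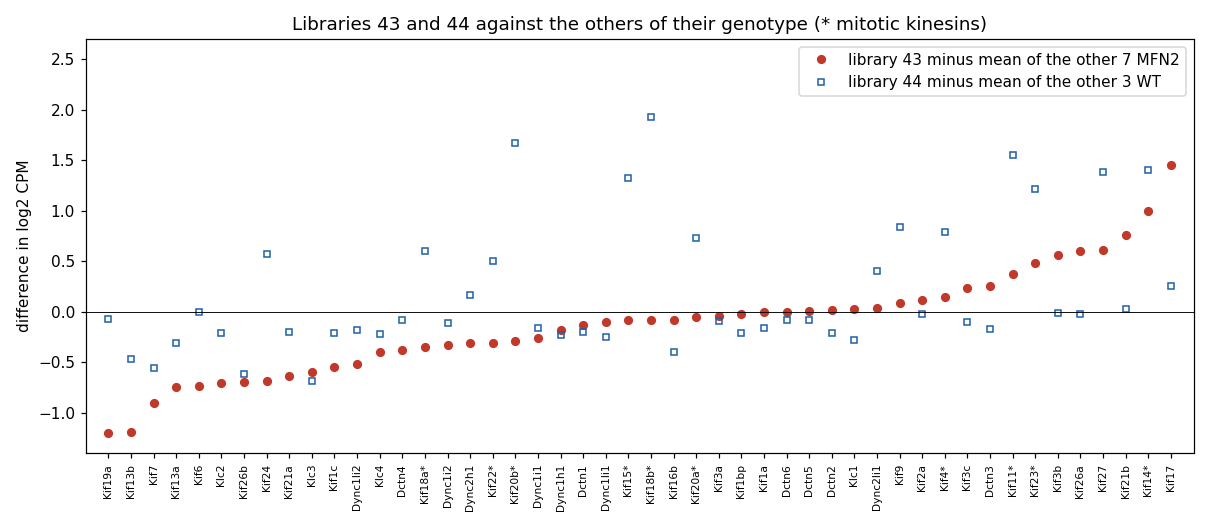
Difference in log2 CPM of library 43 from the mean of the other 7 MFN2 libraries (red, filled) and of library 44 from the mean of the other 3 WT libraries (blue, open) for the 48 members tested, ordered by the first. Mitotic kinesins carry an asterisk and lie above 0 in library 44, up to 1.92 for Kif18b, while Kif17 is highest in library 43 at 1.45.

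Partners of the motors, from lists kept apart from the members, showed 0 calls in the comparison of all MFN2 and WT mice. In libraries 72 to 76 against WT, 3 of 6 dynein light chains tested were called, against 23.5% of all genes. Dynll1, which also binds many proteins outside dynein, was higher (0.32, SE 0.077), while Dynll2 (-0.32, SE 0.067) and Dynlt3 (-0.28, SE 0.067) were lower. Dynll2 was at 460, 594, 557 and 524 CPM in WT libraries 44 to 47 and at 419, 403, 419, 440.2 and 446 CPM in libraries 72 to 76, without overlap, as for 19.6% of all genes. Of the 6 actin-like and capping genes of dynactin 0 were called.

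Among 14 dynein regulators and adaptors tested, 4 were called in libraries 72 to 76, a share near the 23.5% of all genes. Bicd1 (0.27), Hook1 (0.45) and Nin (0.42), which link dynein to cargo or to the centrosome, were higher, and Ndel1 (-0.24), which activates dynein with Lis1, was lower. Of 10 kinesin adaptors, Mapk8ip1 and Mapk8ip2 (-0.28 and -0.27), the JIP scaffolds that bind kinesin-1, were lower. Of the 4 heavy chains that the rule left out, Kif5b was called (-0.34, SE 0.09), and Kif5a (-0.19), Kif5c (-0.01) and Kif1b (-0.15) were not. Of the 4 minus end directed kinesin-14 genes, Kifc3 was lower (-0.38, SE 0.063).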

How the data were processed

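Lumbar spinal cord RNA of 8 MFN2 and 4 WT mice was sequenced as paired reads with a SMARTer kit. After adapter trimming and STAR alignment to GRCm38 the authors counted reads per Ensembl gene, and the deposited values are these raw counts. How reads were counted, and with which strand setting, is not given in the sources used here. Members were located in GENCODE M21, and 9 of them (Dctn6, Kif1bp, Kif20a, Kif2a, Kif3c, Kif4, Kif7, Klc2 and Klc3) share over 10% of their exon bases with genes on the other strand, so that their counts are uncertain. Libraries of the same genotype all differed beyond sampling noise.

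Genes above 1 CPM in at least 3 libraries (15942) entered the legacy, robust quasi-likelihood test of edgeR 4.0.16 (R 4.3.3) after TMM scaling, with an FDR of 0.05 by the Benjamini-Hochberg method. Standard errors follow from the F statistic, and log2 CPM has a prior count of 2. RPKM is CPM divided by kilobases of annotated exon. The alternatives were other filters, scalings and fits, DESeq2 1.42.0, and each library left out. The test was also run on simulated counts, and the outcome is not given here. With 19359454 counts in the shallowest library, genes around 1 CPM rest on few reads.

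The members and gene lists were chosen with earlier results of these data known, and the red cell and neutrophil lists after their values were seen. Genes named are the 10 members of the disease-linked list, the 10 highest per length in WT mice and the 5 largest rises and falls. They also include members without overlap between genotypes, the 5 farthest up and down in library 43, and members or partners past the threshold. Others were named to illustrate a family or list after their values were seen. Some genes of the marker lists are not reported here and were left out of the sums.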

Additional observations from a re-analysis of the deposited data

Results flagged for a closer look

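In each genotype the gap between the highest or lowest library and its nearest neighbour, divided by the whole range, was compared with Dixon's 95% critical value for the named members and 2 sums. Of 64 groups tested 9 exceeded it. Chance flags about 1 in 20 groups, but some of these members were named because they lay farthest in library 43 or had the largest changes, so their count has no chance value to be set against. Over all 48 members tested 11 of 96 groups exceeded it. By genotype these were 14.6% of members against 22.2% of all genes in MFN2 mice, and 8.33% against 5.46% in WT mice. In the MFN2 mouse with library number 43 these were Kif21a (402 CPM, ratio 0.549) and Klc2 (195 CPM, ratio 0.598), lowest there, and Kif17 (21.3 CPM, ratio 0.831) and Kif21b (203 CPM, ratio 0.865), highest there. In the WT mouse with library number 44 these were Klc1 (708 CPM, ratio 0.843), lowest there, and the mitotic Kif18b (2.53 CPM, ratio 0.976), Kif18a (2.18 CPM, ratio 0.882) and Kif20b (4.75 CPM, ratio 0.920), highest there. Kif18a was also highest in the MFN2 mouse with library number 73 (3.001 CPM, ratio 0.548). Of the 9 cases 4 fell in library 43 and 4 in library 44. Forebrain genes in library 43 and dividing cell and blood cell precursor genes in library 44 moved with them, with values given in the report, and their part was not tested.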

How the results depend on the processing

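No paired analysis was possible because no library number occurs in both genotypes. Between all MFN2 and WT mice the number of members called was 0 in edgeR under each filter, scaling and fit tried and in the 12 fits that each left out 1 library (0 to 0), and 1 (Kif16b) with DESeq2 or, as chosen after seeing the data, without libraries 43 and 44. The number of all genes called, 0, was 200 with DESeq2, 150 without libraries 43 and 44, and 0 to 19 with 1 library left out, highest without library 43. The member median of -0.03 was 0.016 with library size only and -0.081 with the run of numbers as a covariate, and -0.06 to -0.016 with 1 library left out. For libraries 72 to 76 against WT the 8 members called (23.5% of all genes) became 2 in 1 fit of 3 groups (7.68%), and 6 to 14 with 1 library left out (14.8% to 28.3%), most without library 44. There Kif2a was lost without the filter, Dctn3 and Kif13a with library size only, Kif19a was gained under both and with DESeq2, and Dync2h1 and Kif3a with library size only. For libraries 72 to 76 against 41 to 43 the 0 members called (2.29% of all genes) became 1 with library size only (2.42%), 4 with DESeq2 (11.1%), 1 in 1 fit of 3 groups (8.4%), and 0 to 6 with 1 library left out, most without library 43 (14.6%). The median deviation of the members in library 43, -0.087, was -0.13 with library size only.

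Of 30 named members 15 kept the direction of their log2 fold change in every alternative. With library size only it reversed to 0.013 for Dctn1, 0.028 for Dync1i1, 0.043 for Kif21a, 0.0057 for Kif27 and 0.019 for Kif3c, and with upper-quartile scaling to 0.00028 for Kif21a. With the run as a covariate it became 0.023 for Dctn1, -0.089 for Dync1i2, -0.051 for Dync2h1, -0.22 for Kif19a, 0.016 for Kif1a, -0.055 for Kif20b, 0.21 for Kif27 and 0.090 for Kif3c. Without libraries 43 and 44 it became 0.32 for Kif11, 0.22 for Kif14, 0.49 for Kif18b, 0.0071 for Kif21a, -0.049 for Kif21b, -0.089 for Kif26a and 0.34 for Kif27. With 1 library left out the range crossed 0 for Dctn1 (-0.087 to 0.0058), Dync1i1 (-0.063 to 0.023), Kif11 (-0.43 to 0.37), Kif14 (-0.38 to 0.37), Kif18b (-0.58 to 0.47), Kif21a (-0.059 to 0.055), Kif21b (-0.056 to 0.090), Kif26a (-0.083 to 0.039) and Kif27 (-0.28 to 0.43). None of these reversed values passed the threshold, and the cause was not tested.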
